A study of Mus musculus with 10 samples.

Results

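Chemokines and their receptors were followed in the DNA of mouse ovarian tumors and in the RNA of ascites cells. Members were the genes whose symbol starts with Ccl, Cxcl, Xcl, Cx3cl, Ccr, Cxcr, Xcr or Cx3cr and a number, and 54 of the 21338 genes named in either kind of table met this rule, 35 ligands and 19 receptors. Of these, 53 lie in the copy number bins of the tumors and 24 appear among the marker genes of the ascites clusters, with 23 in both and Ccl8 in the ascites markers alone. The symbols chose the members, and no measured value did.

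The tumors arose in C57BL/6 mice after electroporation, inside the animal, of fallopian tube epithelium with plasmids for Cas9, guide RNA and Cre, which all 8 tumors share. The tumors fall into 5 with Lkb1 deleted and 3 with Lkb1 intact, Lkb1 being the kinase gene also called Stk11. By the label for PAX8, a transcription factor of fallopian tube secretory cells, 4 tumors are PAX8-positive (Lkb1-deleted tumors 1 and 4 and Lkb1-intact tumors 2 and 3) and 4 are PAX8-negative (Lkb1-deleted tumors 2, 3 and 5 and Lkb1-intact tumor 1). Values per tumor are given in these orders, and by Lkb1 status in the order of the tumor numbers. Low-coverage whole genome sequencing gave each tumor a mean depth between 1.25 and 2.24 over the bins, and each tumor is 1 library. Ascites is the fluid that collects in the abdomen, and single-cell RNA sequencing of it came from 1 mouse with Lkb1 deleted, after red cells were removed. That mouse has the same number in the labels as Lkb1-deleted tumor 1. Ages, and genes edited other than Lkb1, are not stated in the labels used here.

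Chemokines are small secreted proteins that direct the movement of leukocytes along a gradient through receptors coupled to G proteins. Inflammatory chemokines draw neutrophils, monocytes and effector T cells into inflamed tissue, while homeostatic ones guide lymphocytes through lymphoid organs. In ovarian cancer, ascites holds tumor cells together with macrophages, lymphocytes and fibroblasts, all of which can make or sense chemokines.

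In the ascites, the fibroblast cluster was marked by ligands alone, the B cell cluster by 1 receptor alone, and the T cell and myeloid clusters by both. The authors' deposited table listed chemokine genes 31 times among 1991 marker entries, or 1.56% of entries, in 7 of 9 clusters. Of the 24 genes listed there, 16 were ligands and 8 receptors, and 7 genes were listed in 2 clusters and 17 in 1. Values from it are the authors' average log fold change of a cluster against the other cells, on a natural log scale, and no marker below 0.50 was listed, so a gene missing from a cluster is not shown to be absent. No source used here states how doublets were handled. The cells come from 1 library, the clusters were made from the same genes, and these values are a description with no test.

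The cluster names are the authors', and for some of them the markers in the authors' deposited table pointed elsewhere. CAFs (8), named for cancer-associated fibroblasts, listed 5 of 5 fibroblast markers, such as Col1a1 and Pdgfra, and T-cells (6) listed 5 of 5 T cell markers. Monocytes (1) listed 6 of 6 neutrophil markers in that table, S100a8, S100a9, Retnlg, Csf3r, Mmp9 and Ly6g, and 1 of 5 monocyte markers, so it is called Monocytes (1) here only as its label. Macrophages (0) listed 7 of 8 macrophage markers, whereas Macrophages (3) listed none of them and 3 of 5 monocyte markers, of which Ccr2 is itself a chemokine receptor. Dividing cells (5) listed 3 of 4 cycling genes beside 3 of 7 dendritic cell markers, of which Xcr1 is a chemokine receptor. Tumor cells (2) listed 5 of 6 epithelial markers and also 4 of 4 mesothelial markers.

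CAFs (8) listed 8 chemokines and no receptor, which is 33.3% of the 24 chemokine genes listed in any cluster, against 22.6% for all 1596 genes listed in any cluster. Cxcl13, which draws B cells through Cxcr5, led them in the authors' deposited table with an average log fold change of 2.52, a 12.4-fold level, and was the entry ranked 3 of 360 in the cluster. Cxcl5 (1.75) and Cxcl1 (1.44), both attractants of neutrophils through Cxcr2, followed in the authors' deposited table together with Cxcl12 (1.61), the ligand of Cxcr4 that retains blood precursors in the marrow. The monocyte attractants Ccl2 and Ccl7, ligands of Ccr2, stood at 1.45 and 0.97 in the authors' deposited table. Cxcl10, an interferon-induced ligand of Cxcr3, and Cxcl16, a ligand of Cxcr6 that can stay anchored in the membrane, were near the lower end of the authors' deposited table at 0.61 and 0.52.

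Monocytes (1) combined a neutrophil attractant with the receptor that senses it. Cxcl2, a ligand of Cxcr2, reached 2.70 in the authors' deposited table, a 14.8-fold level that ranked 7 of 241 entries. Cxcr2 itself stood at 1.65 and Ccr1, a receptor for several CC chemokines on myeloid cells, at 1.24 in the authors' deposited table. These 3 members are 12.5% of the chemokine genes listed anywhere, against 15.1% for all listed genes.

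Cxcl1, Cxcl2, Cxcl10 and Cxcl13 lie on chromosome 5, and the promoters of these 4 CXC ligands among the ascites markers are shown because they differ in the motifs they hold. The sequences are from RefSeq (GRCm38.p6) and run 5′ to 3′ on the gene's strand, from 250 bases before to 50 bases after the start of the gene. Capitals mark matches, on either strand, of the NF-kB consensus, the motif bound by the transcription factor family that switches on many inflammatory genes.

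Cxcl1 (chr5:90890995-90891294, plus strand): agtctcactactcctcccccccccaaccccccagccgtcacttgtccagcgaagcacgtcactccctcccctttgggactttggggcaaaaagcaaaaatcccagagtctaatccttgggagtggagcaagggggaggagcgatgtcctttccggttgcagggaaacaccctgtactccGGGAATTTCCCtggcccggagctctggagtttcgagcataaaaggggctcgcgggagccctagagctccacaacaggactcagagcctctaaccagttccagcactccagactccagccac
Cxcl2 (chr5:90903649-90903948, plus strand): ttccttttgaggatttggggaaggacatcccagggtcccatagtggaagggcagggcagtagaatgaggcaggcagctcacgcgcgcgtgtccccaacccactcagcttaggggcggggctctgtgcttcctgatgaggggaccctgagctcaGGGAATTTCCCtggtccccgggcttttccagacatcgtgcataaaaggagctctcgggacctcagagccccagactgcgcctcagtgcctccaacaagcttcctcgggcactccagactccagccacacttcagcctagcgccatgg
Cxcl10 (chr5:92348840-92349139, minus strand): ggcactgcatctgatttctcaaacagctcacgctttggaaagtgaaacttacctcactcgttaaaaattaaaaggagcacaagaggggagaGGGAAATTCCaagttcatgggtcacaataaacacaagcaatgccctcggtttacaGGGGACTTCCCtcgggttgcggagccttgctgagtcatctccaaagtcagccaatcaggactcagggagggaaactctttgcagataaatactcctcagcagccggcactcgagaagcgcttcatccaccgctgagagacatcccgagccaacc
Cxcl13 (chr5:95956689-95956988, plus strand): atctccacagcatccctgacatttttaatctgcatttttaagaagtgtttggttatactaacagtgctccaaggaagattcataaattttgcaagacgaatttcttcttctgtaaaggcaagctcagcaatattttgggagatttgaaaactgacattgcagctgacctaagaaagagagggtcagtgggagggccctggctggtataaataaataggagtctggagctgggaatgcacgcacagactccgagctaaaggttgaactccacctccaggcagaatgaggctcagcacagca

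The consensus matched on both strands, in overlapping letters, of the run GGGAATTTCCC that Cxcl1 and Cxcl2 share. Cxcl10 held 3 matches, of which 2 overlap, and Cxcl13 held none. Of 27025 genes with a promoter in the RefSeq table, 9.55% held a match. Among the 43 genes in that table that meet the symbol rule, 11 did, and they were Ccl1, Ccl9, Ccl20, Ccl27a, Ccr1, Ccr3, Ccr6, Cxcl1, Cxcl2, Cxcl3 and Cxcl10. The motif was chosen with matches in view, a match is letters in a window and not a bound site, and 40 of the 54 members had a promoter in the table, among them 15 of the 24 listed in ascites.

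Macrophages (3) held the highest density of chemokine genes, 9 of its 75 entries, or 12%. These are 37.5% of the chemokine genes listed in any cluster, against 4.7% for all listed genes. Ccr2, the receptor that brings monocytes out of the marrow, led with 1.60 and ranked 5 of 75 entries in the authors' deposited table. Its ligands Ccl12, Ccl2 and Ccl7 appeared in the same cluster of the authors' deposited table at 0.89, 0.69 and 0.64. Ccl5 (0.87) and Ccl4 (0.63), attractants of T cells and monocytes, were listed there as well, as were Ccl9 (0.57), Cxcl16 (0.55) and, as the weakest entry but 1 in the authors' deposited table, Cx3cr1 (0.51), the fractalkine receptor.

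Macrophages (0) listed another set, with 6 members among 158 entries, or 25% of the chemokine genes listed anywhere against 9.9% for all listed genes. Ccl6 (1.25) and Ccl9 (1.01), mouse ligands of Ccr1, and Ccl24 (1.20), an eosinophil attractant acting through Ccr3, were the highest in the authors' deposited table. Ccl8, a ligand of Ccr8 in the mouse, stood at 0.80 and Cxcl13 at 0.52 in the authors' deposited table. Only Ccl9 was shared between the 2 clusters named macrophages. The difference between these 2 clusters was not tested, since both belong to 1 library.

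T-cells (6) listed Ccl5, a ligand that effector T cells make, as its leading entry, with an average log fold change of 2.96 and a 19.2-fold level in the authors' deposited table. Cxcr6, a receptor of effector and resident T cells, reached 1.62 in the authors' deposited table, and Ccr7, which guides lymphocytes and dendritic cells to lymph nodes, 0.55. B-cells (4) listed Ccr7 alone, at 0.72, and Dividing cells (5) listed Xcr1, the receptor of cross-presenting dendritic cells, at 0.97 in the authors' deposited table. These clusters held 12.5%, 4.17% and 4.17% of the chemokine genes listed anywhere, against 13.8%, 13.5% and 7.02% for all listed genes.

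Tumor cells (2) listed no chemokine gene among 572 entries, although 35.8% of all genes listed in any cluster were listed there. Erythrocytes (7) listed none among 38 entries, against 2.38% for all listed genes. The table holds no levels, so how far tumor cells express chemokines below the listing limit is not seen.

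**Figure D1:**
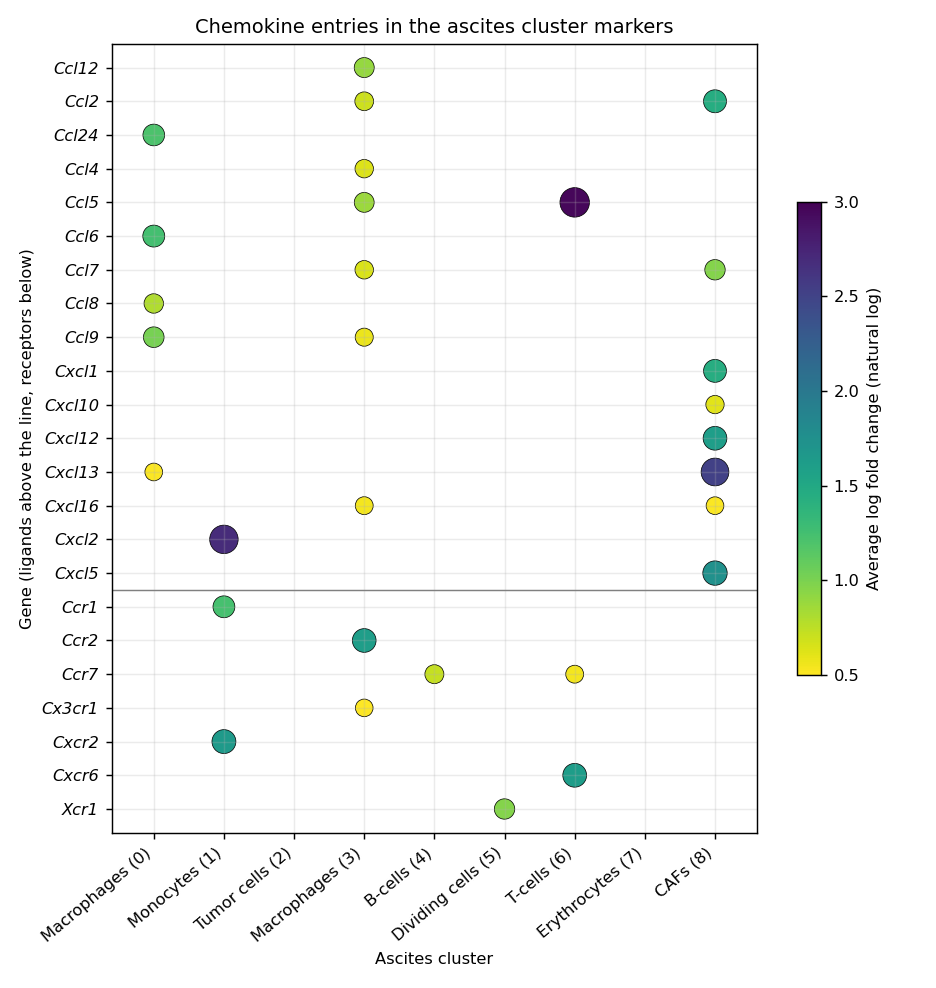
Average log fold change (natural log, colour and point size) of the listed chemokine genes reported here in the 9 ascites clusters, from the authors' deposited table, with ligands above the line and receptors below it. CAFs (8) hold 8 ligands and no receptor, and Tumor cells (2) and Erythrocytes (7) hold no point.

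Of 35 textbook pairs of ligand and receptor drawn up for this family, 13 had both partners listed, among them pairs of Cxcr2, Cxcr6, Ccr1 and Ccr2. Cxcr2 in Monocytes (1) met Cxcl1 and Cxcl5 in CAFs (8) and Cxcl2 in Monocytes (1). Cxcr6 in T-cells (6) met Cxcl16 in Macrophages (3) and CAFs (8). Ccr1 met Ccl5, Ccl6, Ccl7 and Ccl9. Ccr7, Xcr1 and Cx3cr1 were listed without a listed ligand, since Ccl19, Ccl21a, Xcl1 and Cx3cl1 marked no cluster. Cxcr3, Cxcr4, Cxcr5, Ccr3 and Ccr8 marked no cluster although a ligand of each was listed. Such pairs are positions in a marker list, and no contact or signal was measured.

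Of 11 atypical and related receptors and ligands, 5 were listed. Ccrl2 (2.01), a receptor that binds chemerin, and the cytokine Mif (0.83) marked Monocytes (1) in the authors' deposited table, and the platelet chemokine Pf4 (1.60) marked Macrophages (0). Rarres2, which encodes chemerin, was listed at 1.83 in Tumor cells (2) and at 0.54 in CAFs (8) in the authors' deposited table. Cd74, the invariant chain and a receptor of Mif, was listed in Macrophages (3), B-cells (4) and Dividing cells (5). Only 3 of 18 signalling genes below the receptors were listed, Rgs1 in Macrophages (3) and Rgs2 and Rac2 in Monocytes (1). Among 9 leukocyte adhesion genes 5 were listed, and among 11 cytokines that act beside chemokines 2 were, Il1b (3.03) and Osm (1.56), both in Monocytes (1) of the authors' deposited table.

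In the tumor DNA, chemokine genes were small targets, and their own bins varied more between tumors than those of most genes. The 53 symbols fall under 52 names of the bin tables, since Ccl19 and Ccl21a share bins, and 11 names are shared with other genes. A name's value is the median log2 copy ratio of its bins, and 42 of the 52 names have 1 bin. The median bin length of the members was 6994.5 bases, against 16598 bases over the 18331 names measured in all 8 tumors. The median SD over the 8 tumors was 0.32 for members and 0.24 for all names. In bins up to 2500 bases the median SD was 0.54 for 10 members and 0.69 for 1089 names, and in bins over 5000 and up to 10000 bases it was 0.30 for 11 members and 0.31 for 2925 names.

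**Figure D2:**
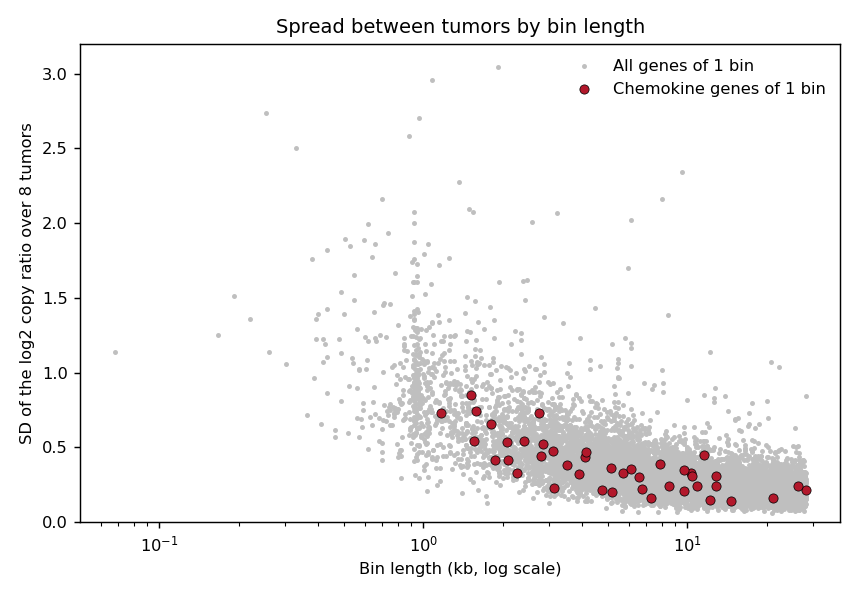
SD of the log2 copy ratio over the 8 tumors (vertical axis) against bin length in kb (horizontal log axis) for every name of 1 bin (grey) and for chemokine names of 1 bin (red). The spread is highest in short bins, with a median SD of 0.69 up to 2500 bases and 0.21 over 20000 bases.

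For this reason each member's value is set beside its neighbourhood, the median of the other bins within 500 kb. Over all members and tumors, 248 of 416 own values lay past 0.2 or below -0.2, and in 73 of these, or 29.4%, the neighbourhood lay past the same limit in the same direction, against 38.1% over all names. Per tumor, the share of members whose own value was past the limit was 68.3% ± 5.09 in PAX8-positive tumors and 51.0% ± 4.58 in PAX8-negative tumors (SD, n = 4 each), and the groups did not overlap. The same share over all names was 55.8% ± 3.80 in PAX8-positive and 34.2% ± 7.64 in PAX8-negative tumors. It did not overlap either, with 50.3% to 58.9% in PAX8-positive and 26.2% to 43.5% in PAX8-negative tumors, so the separation is not particular to chemokine genes. With the neighbourhood it was 39.9% ± 23.6 of members in PAX8-positive and 5.77% ± 4.15 in PAX8-negative tumors (SD, n = 4 each). The means over all names were close to these, 42.8% in PAX8-positive and 7.13% in PAX8-negative tumors. Single tumors departed in both directions. Lkb1-deleted tumor 4 had 69.2% of members against 52.6% of all names, and Lkb1-intact tumor 3 had 11.5% against 30.1%. No test was made of a share over members. Mean depth also ran with the PAX8 label, at 1.25, 1.43, 1.57 and 1.43 in PAX8-positive tumors and 1.66, 2.06, 2.24 and 1.31 in PAX8-negative tumors. The part of depth in these shares was not tested. Tumor DNA includes that of any normal cells in the piece, and their share was not measured.

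Some members were low in most tumors. Own values were below -0.2 in at least 5 of 8 tumors for 14 of 52 members, against a background of 11.8% of all names. With 1 bin of at most 5000 bases 6 of 20 members were low in this way, against 33.7% of such names, and without such a bin 8 of 32 members were, against 7.89% of those names. The latter comparison is not matched for length. Ccl2, Ccl9, Ccl11, Cxcl12, Ccr1 and Ccr3 among the 8 have 1 bin of 5132 to 12832 bases, below the median of 16598 over all names. Ccl2 and Ccl11, and Ccr1, Ccr3 and Cxcr6, also lie close together. The 14 were Ccl2, Ccl5, Ccl9, Ccl11, Ccl12, Ccl19 with Ccl21a, Cxcl2, Cxcl12, Cxcl13, Xcl1, Ccr1, Ccr3, Cxcr1 and Cxcr6. Ccr1 was the one member below -0.2 in all 8 tumors. It had -0.23, -0.83, -0.85 and -0.25 in PAX8-positive and -0.66, -0.59, -0.22 and -0.94 in PAX8-negative tumors, while the neighbourhood of Ccr1 was below -0.2 only in Lkb1-deleted tumor 4. The groups overlapped. By neighbourhood only Cxcl12 was low in at least 5 tumors (background 1.64%), and only 2 other bins lie within 500 kb of it. Past 0.2 in at least 5 tumors were Cxcl5 and Cxcr4, 2 of 52 members against 6.77% of all names and 11.2% of names with 1 bin of at most 5000 bases, and no member by neighbourhood (0.442%).

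Values below -1 in any tumor were found for 10 of 52 members (background 10.9%, or 47.9% of names with 1 bin of at most 5000 bases), and 9 of the 10 had such a short bin (Ccl3, Ccl7, Ccl12, Ccl17, Ccl24, Cxcl2, Cxcl13, Ccr1l1 and Cxcr3). Ccl28, a ligand of Ccr10 made by mucosal epithelium, was the tenth, with 2 bins. It had -0.56, -0.42, -1.07 and -0.17 in PAX8-positive tumors and -0.18, -0.17, -0.25 and 0.12 in PAX8-negative tumors. Its neighbourhood followed, with -0.59, -0.36, -0.97 and -0.074 in PAX8-positive tumors and -0.21, -0.054, -0.055 and -0.098 in PAX8-negative tumors. Lkb1-intact tumor 2 was lowest on both measures, and the groups overlapped on both. The difference of Ccl28 by PAX8 was -0.43, and -0.26 without that tumor. Past 1 in any tumor was Ccl3 alone (background 1.93%, or 9.61% of names with 1 bin of at most 5000 bases), with 1.08 in Lkb1-deleted tumor 3, where its neighbourhood was at 0.03.

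Of the members that led an ascites cluster, Cxcl13, Cxcl2 and Ccl5 were below -0.2 in at least 5 tumors. Each has 1 bin of at most 5000 bases, and 33.7% of all such names were as low. The leaders of the other clusters were below -0.2 in fewer tumors, Ccr7 and Ccl6 in 4, Xcr1 in 3 and Ccr2 in 2. Cxcl13, the leading chemokine of the fibroblast cluster, had 0.25, -1.06, -0.73 and -0.27 in PAX8-positive tumors and -0.50, -0.044, -1.01 and -0.80 in PAX8-negative tumors. Cxcl2, the leading chemokine of Monocytes (1), had -0.26, 0.031, -1.64 and -0.69 in PAX8-positive tumors and 0.051, -0.62, -0.57 and -0.57 in PAX8-negative tumors. The groups overlapped in each gene. Each gene was below -0.2 in 6 of 8 tumors, but these were not the same 6. Only Lkb1-deleted tumor 5 and the Lkb1-intact tumors were below -0.2 for both genes. Ccl5, the leading entry of T-cells (6), had -0.60, -0.59, -0.14 and -0.50 in PAX8-positive tumors and -0.48, -0.16, -0.047 and -0.36 in PAX8-negative tumors. Ccl2, which led no cluster, had -0.71, -0.70, -0.68 and -0.20 in PAX8-positive tumors and -0.13, 0.18, -0.53 and -0.58 in PAX8-negative tumors. Its only value above 0 was in Lkb1-deleted tumor 3, and Ccl5 had none above 0.

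Ccr2 and Cxcr2, receptors of the myeloid clusters, differed in their spread between tumors. Ccr2 had 0.45, -0.90, 0.16 and -0.53 in PAX8-positive tumors and 0.20, 0.26, -0.057 and -0.066 in PAX8-negative tumors, and its neighbourhood was past 0.2 either way only in Lkb1-deleted tumor 4, at -0.64. Cxcr2 stayed within 0.3 of 0 in all 8 tumors, with 0.026, -0.0072, 0.22 and -0.0028 in PAX8-positive tumors and 0.28, -0.19, -0.031 and -0.15 in PAX8-negative tumors. Cxcr4, which marked no cluster, was high in 6 tumors. It had 0.57, 0.22, -0.38 and 0.41 in PAX8-positive tumors and -0.40, 0.56, 0.60 and 0.67 in PAX8-negative tumors. In the neighbourhood of Cxcr4 only Lkb1-deleted tumor 5 was past 0.2, at 0.41. Cxcl5, a ligand listed in CAFs (8), was high in 6 tumors as well. It had 0.86, -0.14, 0.013 and 0.64 in PAX8-positive tumors and 0.40, 0.39, 0.58 and 0.36 in PAX8-negative tumors, and its neighbourhood was above 0.2 in none.

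Copy number by PAX8 status asked whether chemokine loci differ between tumors that keep or lack this marker. No member passed an adjusted p of 0.05 in limma, and 0% of the 18331 names did. At an unadjusted p of 0.05 limma called 7 of 52 members, Ccl3, Ccl7, Ccl12, Ccl26, Ccl28, Cxcl12 and Ccr7, against 6.74% of all names, and exact permutation over 70 splits called none after adjustment. The smallest adjusted p of a member in limma was 0.741, and the smallest exact p that 4 tumors against 4 can give is 0.0286. From so high a smallest p, exact permutation could hardly call any name after adjustment over 18331 names, so its lack of calls decides nothing. All 7 were lower in PAX8-positive tumors. The median difference was -0.12 over members and -0.029 over all names, and 37 of 52 members were lower in PAX8-positive tumors, against 55.9% of all names. Many of the members lie next to each other and are not independent. P-values measure the spread between these tumors, each with its own number in the labels.

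Ccl3, a ligand of Ccr1, had the largest difference. Its log2 copy ratio was -0.55, -0.43, 0.13 and -1.59 in PAX8-positive tumors and 0.37, 1.08, 0.75 and 0.41 in PAX8-negative tumors. The groups did not overlap, and the PAX8-positive tumors spread more widely. The difference was -1.26 (SE 0.33, limma adjusted p = 0.741), and the exact permutation p of 0.0286 is the smallest possible. In the neighbourhood of Ccl3 the difference was -0.21 (SE 0.11, limma adjusted p = 0.653). Its bin has 1511 bases, one of the shortest among members.

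Ccr7, in a longer bin of 10881 bases, was the other member whose groups did not overlap. It had -0.48, -0.61, -0.48 and -0.27 in PAX8-positive tumors and -0.011, -0.089, -0.011 and -0.079 in PAX8-negative tumors. All 4 PAX8-positive tumors were below -0.2 and all 4 PAX8-negative tumors lay close to 0. The difference was -0.41 (SE 0.11, limma adjusted p = 0.741, exact permutation p = 0.0286). In the bins within 500 kb of Ccr7 the values were -0.11, -0.37, -0.11 and -0.044 in PAX8-positive tumors and -0.055, -0.013, 0.06 and 0.039 in PAX8-negative tumors, which overlap. Non-overlap with lower values in PAX8-positive tumors thus held for 2 of 52 members (background 2.09%), and with higher values for none (1.61%).

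The monocyte attractants Ccl7 and Ccl12 and the eosinophil attractant Ccl11 lie side by side on chromosome 11. Ccl7 had -1.21, -0.094, -0.58 and -1.52 in PAX8-positive tumors and -0.36, 0.019, 0.091 and 0.33 in PAX8-negative tumors. Ccl12 had -0.41, -1.47, -1.15 and -0.90 in PAX8-positive tumors and -0.66, -0.15, 0.22 and -0.78 in PAX8-negative tumors. Ccl11 had -0.54, -0.99, -0.24 and -0.24 in PAX8-positive tumors and -0.43, -0.14, 0.074 and 0.13 in PAX8-negative tumors. In all 3 the groups overlapped by 1 or more tumors, and the differences were -0.87 (SE 0.29), -0.64 (SE 0.27) and -0.41 (SE 0.20), with limma adjusted p between 0.741 and 0.751. Without Lkb1-deleted tumor 4 the difference of Ccl11 was -0.25.

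Cxcl12 had -0.23, -0.51, -0.48 and -0.38 in PAX8-positive tumors and 0.21, 0.012, 0.28 and -0.28 in PAX8-negative tumors. The groups overlapped through Lkb1-deleted tumor 1 and Lkb1-intact tumor 1, and the difference was -0.45 (SE 0.15, limma adjusted p = 0.741). Ccr3, the eotaxin receptor, was lower by a difference of -0.39 (SE 0.20, limma adjusted p = 0.767) and overlapped. The 2 positive differences among the 10 largest were those of Ccl17, a ligand of Ccr4, at 0.69 (SE 0.40), and of the shared bins of Ccl19 and Ccl21a, ligands of Ccr7, at 0.41 (SE 0.19). The difference of Ccl17 was 0.35 without Lkb1-deleted tumor 2, and that of Ccl19 and Ccl21a was 0.24 without Lkb1-deleted tumor 4. Ccl17 ranged from -0.61 to 0.79 in PAX8-positive and from -1.52 to 0.31 in PAX8-negative tumors. The neighbourhood of Ccl17 averaged -0.0093 in PAX8-positive and -0.0094 in PAX8-negative tumors.

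**Figure D3:**
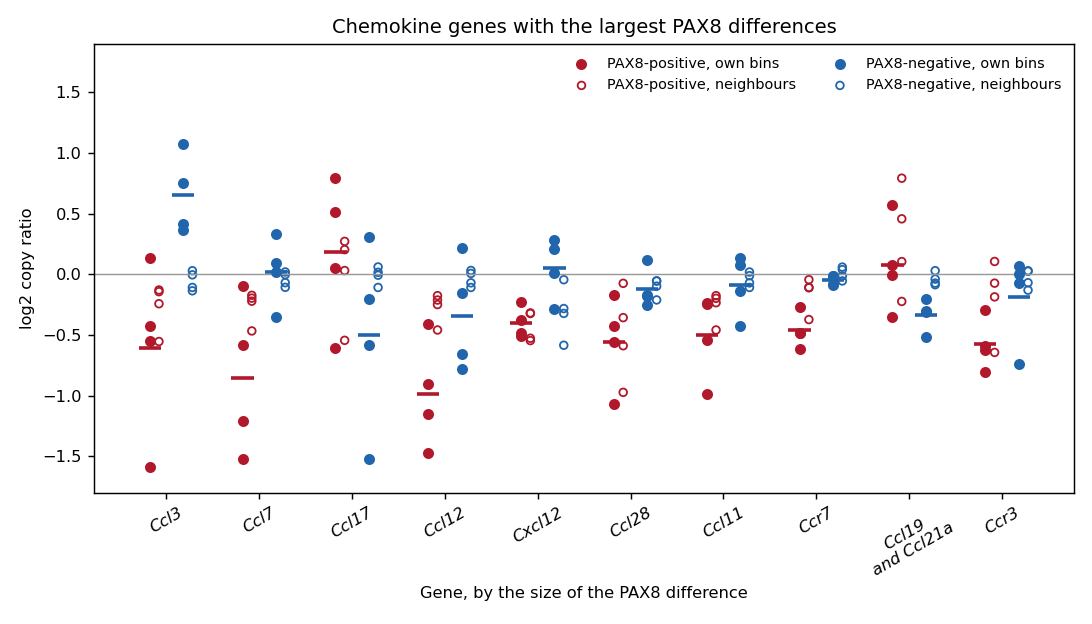
Log2 copy ratio of the 10 members with the largest PAX8 differences, in 4 PAX8-positive tumors (red, left in each pair) and 4 PAX8-negative tumors (blue, right). Filled points are own bins, bars their means, and open points the median of other bins within 500 kb; the open points lie closer to 0 than the filled ones for most genes, and only Ccl3 and Ccr7 have own values that do not overlap between the groups.

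The 52 names form 26 loci when those within 1 Mb of each other are joined. By neighbourhood 14 of the 26 were past 0.2 either way in 2 or more tumors, 9 in 1 tumor and the others in none. No such count was made over all names, so the 14 are not shown to be particular to chemokine loci. By neighbourhood, 30.1% to 52.6% of all names were past 0.2 either way in each PAX8-positive tumor. In each PAX8-negative tumor 1.92% to 11.3% of all names were. The chromosome 11 cluster of CC ligands at chr11:82028225-82305690, which holds Ccl2, Ccl7, Ccl11, Ccl12 and Ccl1, had neighbourhood medians of -0.18, -0.42, -0.12 and -0.12 in PAX8-positive tumors and -0.074, 0.0028, -0.02 and -0.061 in PAX8-negative tumors. The second cluster at chr11:83525779-83664683, with Ccl5, Ccl9, Ccl6, Ccl3 and Ccl4, had -0.25, -0.52, -0.15 and -0.14 in PAX8-positive tumors and -0.086, 0.034, -0.002 and -0.12 in PAX8-negative tumors. Neither locus overlapped between the groups, with differences of -0.17 and -0.22, although most of these values are within 0.2 of 0. Counted gene by gene, the neighbourhood was lower in every PAX8-positive tumor for 5 of 52 members, Ccl1, Ccl2, Ccl7, Ccl11 and Ccl12 (background 2.04%), which share most of their neighbouring bins, and higher for none (2.03%). By neighbourhood limma called 7 of 52 members at an unadjusted p of 0.05, these 5 with Ccl28 and Cxcl14 (background 7.98%), and none after adjustment, where the smallest adjusted p was 0.553.

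Lkb1-deleted tumor 4 had the most widespread change, with 33 of 52 members below -0.2 by neighbourhood and 3 above 0.2, or 69.2% of members past the limit against 52.6% of all names in that tumor. Besides both CC ligand clusters, the CXC ligand cluster at chr5:90759361-90905938 (Cxcl5, Cxcl3, Cxcl15, Cxcl1 and Cxcl2) was at -0.45 in it. The receptor cluster on chromosome 9 with Ccr9, Cxcr6, Xcr1, Ccr1, Ccr1l1, Ccr3 and Ccr2 was at -0.48. That receptor cluster lay at 0.21, -0.049 and -0.079 in the other 3 PAX8-positive tumors and between -0.074 and 0.048 in the 4 PAX8-negative tumors. The CXC cluster was also low in Lkb1-intact tumor 2, at -0.38, and within 0.1 of 0 in the other 6 tumors. Cxcl9 and Cxcl10, ligands of Cxcr3 that lie further along chromosome 5, followed it, at -0.42 in Lkb1-deleted tumor 4 and -0.32 in Lkb1-intact tumor 2.

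Other loci changed together with different tumors. Cxcl14 on chromosome 13, an epithelial chemokine, had neighbourhood medians of -0.64, -0.47, -0.52 and -0.052 in PAX8-positive tumors and -0.096, 0.20, -0.035 and -0.098 in PAX8-negative tumors, so that 3 of 4 PAX8-positive tumors were low, as at Ccl28. The neighbourhood of Ccr6, the receptor of Ccl20, was high in the same 3 tumors, at 0.25, 0.36 and 0.23. It lay between -0.051 and 0.02 in the other 5. The own bin of Ccr6 was above 0.2 in these 3 tumors and also in the PAX8-negative Lkb1-intact tumor 1, at 0.28. The chromosome 4 locus of Ccl27a, Ccl19 and Ccl21a was at 0.82 in Lkb1-deleted tumor 4 and at 0.51 in Lkb1-intact tumor 2, and at -0.23 in Lkb1-intact tumor 3. It holds near-identical copies of Ccl19, Ccl21a and Ccl27a, so its reads cannot be assigned to 1 copy with certainty.

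Among single tumors, Lkb1-deleted tumor 5, which is PAX8-negative, was high at 3 chromosome 1 loci, with 0.38 at Cxcr2 and Cxcr1, 0.40 at Ccl20 and 0.41 at Cxcr4. Lkb1-deleted tumor 1 was low at Ccl22, Cx3cl1 and Ccl17 on chromosome 8, at -0.60, and high at Ccl25, at 0.31, and at Cxcr5, at 0.33. Lkb1-intact tumor 2 was at -0.76 at Cxcr3 on chromosome X.

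**Figure D4:**
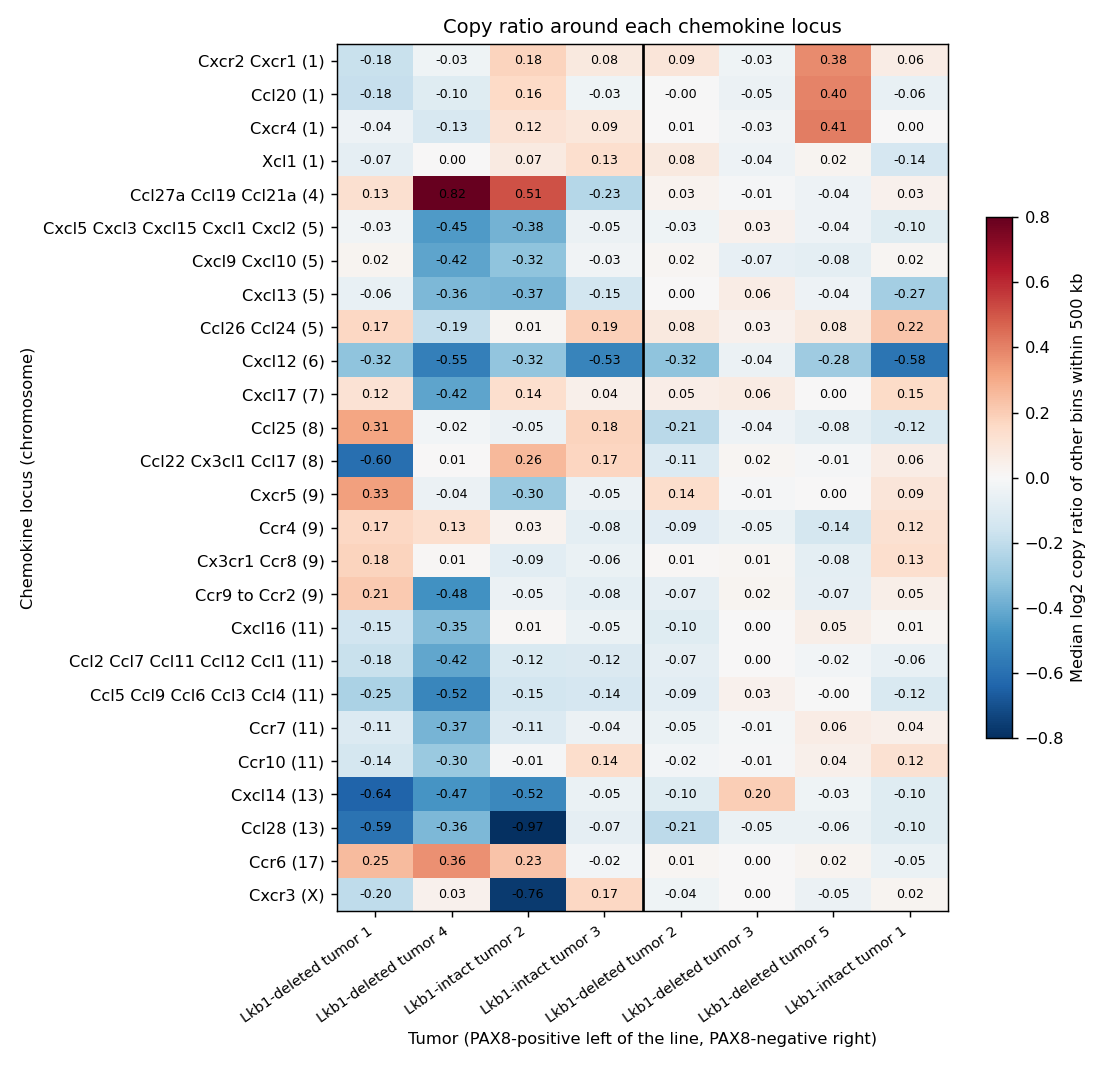
Median log2 copy ratio of the other bins within 500 kb of each of 26 chemokine loci (rows, chromosome in brackets) in the 4 PAX8-positive tumors (left of the line) and the 4 PAX8-negative tumors (right). Blue cells mark low and red cells high values; Lkb1-deleted tumor 4 is low at many loci, and in PAX8-negative tumors values past 0.3 either way are limited to 3 chromosome 1 loci of Lkb1-deleted tumor 5 and to Cxcl12.

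By Lkb1 status, again no member passed an adjusted p of 0.05 in limma (background 0.0273%). Exact permutation over 56 splits called none, but with a smallest possible p of 0.0179 it could hardly call any name after adjustment. At an unadjusted p of 0.05 limma called 6 of 52 members, Ccl20, Ccl22, Ccr3, Cx3cl1, Cxcl2 and Xcl1, against 6.58% of all names, and the smallest adjusted p was 0.596. Xcl1, the ligand of Xcr1, had -0.29, -0.07, -0.31, -0.45 and 0.25 in Lkb1-deleted tumors and -0.59, -0.67 and -0.68 in Lkb1-intact tumors. Its groups did not overlap, and it was the only member of 52 that was higher in every Lkb1-deleted tumor (background 2.59%). The neighbourhood of Xcl1 differed by -0.023 (SE 0.10).

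Cx3cl1, or fractalkine, which is the ligand of Cx3cr1, was the only member lower in every Lkb1-deleted tumor (background 2.92%). It had -0.56, -0.16, 0.013, -0.079 and -0.23 in Lkb1-deleted tumors and 0.35, 0.39 and 0.077 in Lkb1-intact tumors, a difference of -0.47 (SE 0.15, limma adjusted p = 0.613, exact permutation p = 0.0179, the smallest possible). Its neighbourhood also differed, by -0.30 (SE 0.14, limma adjusted p = 0.951). The neighbourhoods of Ccl17, Ccl22 and Cx3cl1, which overlap each other, were lower in every Lkb1-deleted tumor, 3 of 52 members against 2.45% of all names, and no neighbourhood was higher in every Lkb1-deleted tumor (2.52%). At an unadjusted p of 0.05 limma called the neighbourhoods of Ccl17 and Cx3cl1 (background 3.88%).

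Ccl20, the ligand of Ccr6, had the largest difference by Lkb1, 0.75 (SE 0.25, limma adjusted p = 0.637). It had 0.21, -0.60, 0.54, 0.57 and 0.50 in Lkb1-deleted tumors and -0.59, -0.49 and -0.45 in Lkb1-intact tumors. Lkb1-deleted tumor 2 lay with the Lkb1-intact tumors, and the difference was -0.0097 in the neighbourhood. Cxcl2, Cxcr3, Ccl3 and Ccr3 followed with differences of 0.69, 0.63, 0.59 and 0.53, limma adjusted p between 0.596 and 0.876. Of these, the neighbourhoods of Ccl3 and Ccr3 differed by -0.04 and -0.066, opposite to their own bins. Single tumors decided several of these sizes. The difference of Ccl3 was -0.027 without Lkb1-intact tumor 3, 0.97 without Lkb1-intact tumor 1 and 0.38 without Lkb1-deleted tumor 3. That of Cxcr3 was 0.16 without Lkb1-intact tumor 1 and 1.16 without Lkb1-intact tumor 3, and that of Cxcl2 was 0.36 without Lkb1-intact tumor 2.

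The authors also inferred copy number states from the RNA of ascites cells, for a cell group whose name begins with malignant. By RefSeq positions 21 members lie in 8 of these regions, 8 members in regions of state 4 and 13 in regions of state 2. States above 3 were read as gains and below 3 as losses, which the file headers do not state. The largest group is a region of state 2 on chromosome 9, with receptors such as Ccr1, Ccr2, Ccr3, Ccr4, Ccr8, Ccr9, Cxcr6, Xcr1 and Cx3cr1. In Lkb1-deleted tumor 1 the median over the bins of that region was 0.15, so the tumor of the same mouse number was not low there. The gene table named 51 genes in this region. Of these, 1 was listed as a marker of Tumor cells (2), 4 of CAFs (8), 3 of Monocytes (1), 2 of Macrophages (3), 2 of B-cells (4) and 2 of T-cells (6), among others. They include Ccr1, Ccr2 and Cx3cr1, which were listed as markers of Monocytes (1) and Macrophages (3) and not of Tumor cells (2). The part that RNA of these leukocyte genes has in the state call was not tested.

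A region of state 4 at chr8:88118769-95807462, with Ccl22, Cx3cl1 and Ccl17, also went against Lkb1-deleted tumor 1, whose median there was -0.68. In 2 regions of state 4 the tumor was on the same side, with 0.25 in the region of Ccr6 and 0.19 in that of Cxcr5. The median over the region that holds Ccr7, of state 4, was -0.12, and over that of Cxcl12, of state 2, it was 0.10, while the 2 bins nearest to Cxcl12 were at -0.32. The regions of Ccl24 and Ccl26 (state 4) and of Cxcl17 (state 2) had medians of 0.045 and 0.047.

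**Figure D5:**
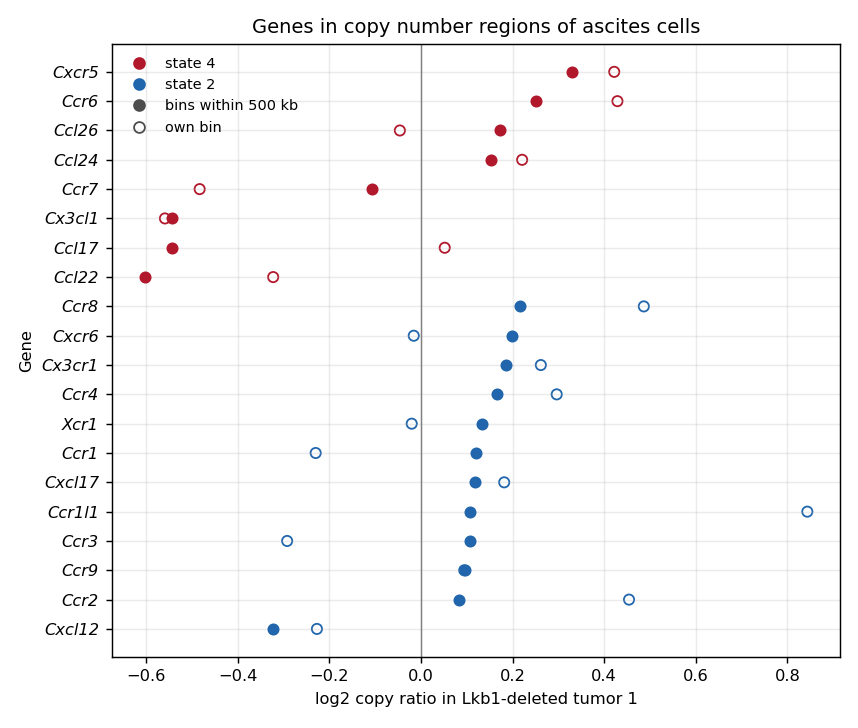
Log2 copy ratio in Lkb1-deleted tumor 1 (horizontal axis) of members that lie in a copy number region of the ascites cells, by state (red for 4, blue for 2). Filled points are the bins within 500 kb and open points the own bin; of the filled points of state 4, those of Ccl22, Cx3cl1 and Ccl17 lie lowest, and of the genes of state 2 shown only Cxcl12 has a filled point below 0.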

How the data were processed

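DNA of 8 ovarian tumors was sequenced at low coverage and RNA of single ascites cells from 1 mouse, while the normal tissue listed in the labels was not analysed here. Seurat 2.3.4, Cell Ranger, Picard and BWA, with the build GRCm38, are the tools in the submitters' processing notes. For each bin of a tumor the authors deposited a log2 copy ratio, whose denominator the file headers do not state, beside its depth (a coverage signal) and a weight, an unused score. Marker genes of the ascites clusters were deposited with p-values, used only as an alternative limit, and with an average log fold change. The scale of these deposited fold changes was taken to be a natural log, from the Seurat version. The deposited copy number regions of ascites cells carry a state score. The coordinates in their gene table are displaced by 1 line against the gene names, so RefSeq positions were used.

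Bins of depth 0 were treated as missing, which left out 144 of 18475 names in the bin tables and kept 18331. Names that join several genes were split to find members. Each name was given the median over its bins, and as its neighbourhood the median over other bins within 500 kb, which could be had for 18314 names. Differences were fitted over all names with limma 3.58.1 in R 4.3.3, with Benjamini-Hochberg adjustment, and by exact two-sided permutation over 70 splits for PAX8 and 56 for Lkb1. The fit was tested on simulated data. A short bin holds few reads at this depth, so its ratio is the least precise. Alternatives were means of bins, the neighbourhood, recentred tumors, bins of depth 0 kept, both labels in 1 model, longer genes only, other thresholds and each tumor left out.

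Named were all members among ascites markers, members past 0.2 or below -0.2 the same way in at least 5 tumors, members past 1 or below -1, the 10 largest differences by PAX8 and the 5 largest by Lkb1. Members whose groups did not overlap or that passed an unadjusted limit, and single tumors at a locus, were named after their values were seen. The members, lists, pairs and the motif were chosen with earlier results of these data known. One member enters the counts and its own values are not reported here. Figures were drawn with matplotlib 3.10.9.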

Additional observations from a re-analysis of the deposited data

Results flagged for a closer look

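In 6 of 75 checks the highest or lowest tumor of a PAX8 or Lkb1 group stood far from the rest of its group. Chance alone gives about 1 in 20 for a gene that was not chosen by its values. The genes checked were named by these same values and the groups share tumors, so that rate cannot be set against the 6. Lkb1-intact tumor 3 was the highest of the PAX8-positive tumors at Ccl2, with a log2 copy ratio of -0.20 against -0.68 in the nearest tumor, and its neighbourhood was at -0.18. Among PAX8-negative tumors, Lkb1-deleted tumor 5 was the lowest at Ccr1l1, with -0.997 against 0.026 in the nearest tumor and -0.12 in the neighbourhood. The same tumor was the highest at Cxcr1, with 0.61 against -0.40, and here its neighbourhood was also high, at 0.38. Lkb1-intact tumor 1 was the lowest at Ccr3, with -0.74 against -0.067 in the nearest tumor and 0.029 in the neighbourhood. Lkb1-deleted tumor 2 was the highest at Cxcl2, with 0.051 against -0.57, and the lowest at Cxcr4, with -0.40 against 0.56, while its neighbourhoods were at 0.015 and 0.0053. The cause of these values was not tested.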

How the results depend on the processing

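No member was called by PAX8 or by Lkb1 in any alternative, and at an unadjusted p of 0.05 limma called between 2 and 10 members by PAX8 and between 0 and 7 by Lkb1. The lowest limma counts, 2 by PAX8 and 0 by Lkb1, came from genes of at least 4 bins only, which leaves out most members. The other limma fits called 4 to 10 members by PAX8 and 2 to 7 by Lkb1 at that unadjusted limit. Exact permutation was among the alternatives and could hardly call any name, given the smallest p it can reach. The difference in the share of members past the threshold, PAX8-positive minus PAX8-negative tumors, was 17.3 percentage points. It was 10.1 with a threshold of 0.1 and 34.1 with the neighbourhood, and between 15.1 and 18.9 when each tumor was left out. Of 31 ascites entries, 14 had an average log fold change of at least 1. Of 211 alternatives to the 15 named differences, 207 kept their direction, and none of the 211 had an adjusted p under 0.05. The sizes still moved, and with the neighbourhood Ccl17 by PAX8 was at 5.5e-05 (0.69 by its own bin), Ccl3 by PAX8 at -0.21 (-1.26) and Cxcl2 by Lkb1 at 0.087 (0.69). The other 4 turned round, all by Lkb1: with the neighbourhood Ccl20 was at -0.0097, Ccl3 at -0.040 and Ccr3 at -0.066, and without Lkb1-intact tumor 3 Ccl3 was at -0.027, the lowest of its values with 1 tumor left out, which reached 0.97. The cause was not tested. No paired analysis was possible because the tumors are numbered in the order of the records only. The limit on the share of cells that express a marker was not run, since the marker table holds no such share. At mean depths between 1.25 and 2.24, single bins of a few kb are the least precise values.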
